A study of Mus musculus with 6 samples.

Results

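The Hox cluster genes are the homeobox genes of the Hoxa, Hoxb, Hoxc and Hoxd clusters. They were chosen by symbol alone, as every gene named Hoxa, Hoxb, Hoxc or Hoxd and a number, and all 39 such genes of the RefSeq gene table had a probe on the arrays used here. These 39 genes were read by 43 probes, of 20145 named genes and 55681 probes in all. RNA came from N2a (neuro2a) cells, an established line derived from a mouse neuroblastoma, a tumour of the sympathetic nerve lineage. On 3 arrays, called control, the cells had been transfected with an empty vector for microRNA-based RNAi. On the other 3 arrays, called knockdown, they had received vectors of the same kind against NF-YA and NF-YC, which together with NF-YB form NF-Y, a factor that binds CCAAT letters in promoters. All cells were thus transfected and of one line, and the labels do not say whether replicates were separate cultures, so p-values measure only the spread between these samples.

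Hox genes encode transcription factors that give cells along the head-to-tail axis their regional identity. Within a cluster, genes toward one end (low paralogue numbers) are switched on first and reach furthest toward the head, and genes toward the other end (high numbers) are switched on later and act in the trunk, tail and limb ends. In the nervous system they pattern the hindbrain and the motor columns of the spinal cord, and Polycomb complexes keep clusters silent in cells that do not use them. Hox proteins bind DNA together with TALE cofactors of the Pbx and Meis families.

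Since the targeted factor binds CCAAT, the stretch before the start site was read in the RefSeq promoter table of assembly GRCm38.p6, which holds 250 bases before and 50 after each start. It held 24 promoters of 22 Hox genes. CCAAT on either strand (ATTGG on the reverse) stood in 15 of the 24, or 62.5%, and in 37.4% of all 32851 promoters of the table. Below, the 250 bases before the start are printed 5′ to 3′ for genes whose signals are described further on. Hoxa6 and Hoxa13 were measurable in these cells and hold a match each, Hoxa7 was measurable and holds none, and Hoxa2 was not measurable and holds 4. Capitals mark CCAAT and its reverse.
Hoxa6 (chr6:52208673-52208922, minus strand): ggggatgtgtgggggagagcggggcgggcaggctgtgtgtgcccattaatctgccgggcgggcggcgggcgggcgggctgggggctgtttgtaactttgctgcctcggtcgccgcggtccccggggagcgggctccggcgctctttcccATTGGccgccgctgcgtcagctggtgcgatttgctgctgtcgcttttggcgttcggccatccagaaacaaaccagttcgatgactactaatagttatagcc
Hoxa13 (chr6:52260881-52261130, minus strand): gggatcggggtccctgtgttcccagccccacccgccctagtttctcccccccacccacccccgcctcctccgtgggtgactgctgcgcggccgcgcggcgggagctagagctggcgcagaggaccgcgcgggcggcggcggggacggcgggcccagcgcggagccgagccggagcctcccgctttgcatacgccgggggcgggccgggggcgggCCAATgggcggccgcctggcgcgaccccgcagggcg
Hoxa7 (chr6:52218574-52218823, minus strand): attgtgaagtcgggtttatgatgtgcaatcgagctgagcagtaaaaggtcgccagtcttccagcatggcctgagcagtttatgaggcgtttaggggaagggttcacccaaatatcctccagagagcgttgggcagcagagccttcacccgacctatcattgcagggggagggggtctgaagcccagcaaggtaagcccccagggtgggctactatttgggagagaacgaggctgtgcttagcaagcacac
Hoxa2 (chr6:52164832-52165081, minus strand): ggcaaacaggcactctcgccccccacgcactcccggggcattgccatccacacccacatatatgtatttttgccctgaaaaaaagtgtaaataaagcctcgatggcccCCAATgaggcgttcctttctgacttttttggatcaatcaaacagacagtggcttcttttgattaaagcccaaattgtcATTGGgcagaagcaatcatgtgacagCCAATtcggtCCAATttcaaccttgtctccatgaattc
The Hoxa6 match runs on the reverse strand from -101 to -97 relative to the start, and the Hoxa13 match on the forward strand from -36 to -32. In Hoxc4, another measurable gene, the reverse-strand match lies at 3 to 7 bases from the start on the transcribed side, counting the start as 1. Of the promoters of genes well above background on all control arrays, 3 of 5 held a match, and of the promoters of the other Hox genes 12 of 19 (63.2%). The table thus covered 5 of the 13 measurable genes, and the difference between these shares was not tested. A match is a run of letters and not a bound site, and its absence says nothing of NF-Y.

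Signal is given on a log2 scale on which 0 is the 75th percentile of the same array, so that a value compares a probe across arrays and not with other probes. That percentile lay between 718 and 754 intensity units, and 61.9% to 66.2% of spots per array were flagged by the scanner software as well above background. The targets were lower in the knockdown, with Nfya at 0.14, 0.15 and 0.21 on control and -0.66, -0.52 and -0.59 on knockdown arrays (change -0.76, limma adjusted p = 0.00128), and Nfyc changed by -1.81 (limma adjusted p = 0.000323). Of 15 neuronal and neuroblastoma markers 14 were well above background on all control arrays, the exception being Nefl, a neurofilament gene. Of these, Th was called lower. The summed level of the list was 284 to 293 times the 75th percentile on control and 271 to 279 times on knockdown arrays, without overlap. Th, with a control mean of 1.07 against 6.33 for Phox2a, adds little to this sum. Phox2a adds the most and changed by -0.49 (limma adjusted p = 0.00308), under 1.5-fold. At any fold, Map2 and Stmn2 also had a limma adjusted p below 0.05 on the lower side, and Gata2, Gata3 and Isl1 on the higher. Of 22 markers of fibroblast, glial, immune, endothelial and epithelial cells with a probe, 15 were well above background on all control arrays, and Cdh1, Cdh5, Col3a1, Epcam, Krt18 and Lum on no array. Of these markers, 2 were called lower in the knockdown, among them Col1a1, and 2 higher, Krt8 and Pdgfra. Over all genes, 5% were called lower and 3.91% higher. Their summed level was 17.1 to 19.7 times the 75th percentile on control and 15.1 to 16.7 on knockdown arrays. Most of it, 13.7 to 15.2 on control arrays, came from the endothelial list, through probe A_55_P2094469 of Kdr (3.91, 3.87 and 3.75 on control arrays), while the other Kdr probe was well above background on no array. The epithelial sum was higher in the knockdown, at 0.14 to 0.20 against 0.11 to 0.12, and the fibroblast sums overlapped. Each sum adds the signals of unlike probes, so it compares arrays and does not measure amounts of cell types. The part of these markers in the Hox values was not tested.

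N2a cells carried signal for a restricted set of Hox genes. On all 3 control arrays, 13 of the 39 genes (33.3%) had a probe well above background, against 71.8% of all named genes. Another 24 genes were well above background on no array, and Hoxa3 and Hoxc8 on 2 of the 6 arrays each. Of the 43 Hox probes, 14 were flagged on all 3 control arrays, a lower share than the 61.4% of all probes. A further 27 (62.8%) were flagged on no array, against 27.6% of all probes. The counts by cluster were uneven. In the Hoxc cluster 6 of 9 genes were measurable on all control arrays, in the Hoxa cluster 5 of 11, in the Hoxb cluster 2 of 10 and in the Hoxd cluster 0 of 9.

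**Figure D1:**
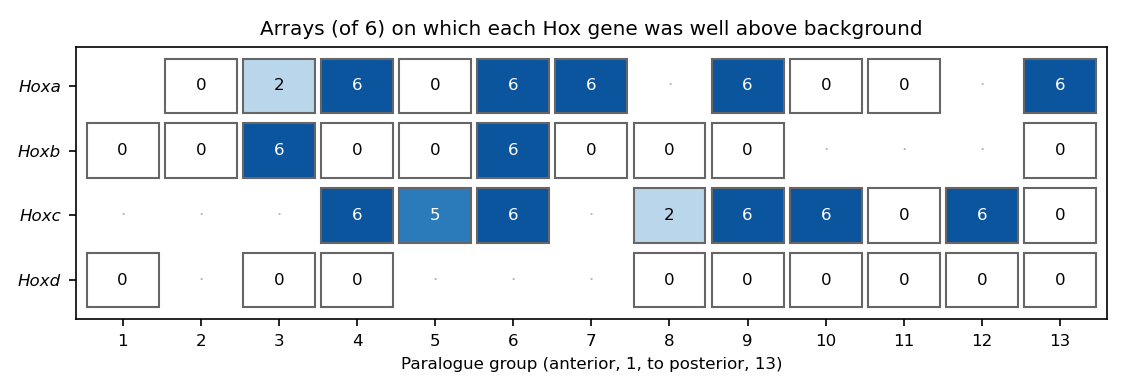
Each box is a Hox gene, placed by cluster (rows) and paralogue group (columns), and its number counts the arrays, of 6, on which at least 1 of its probes was well above background; dots mark positions without a gene, and a blank position is not shown. Filled boxes lie mostly in the Hoxa and Hoxc rows, and all 9 boxes of the Hoxd row hold 0.

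By position along the clusters, 1 of 8 genes of paralogue groups 1 to 3 was measurable on all control arrays, namely Hoxb3, which acts in the hindbrain. Of the 15 genes of groups 4 to 8 there were 7, which are Hoxa4, Hoxa6, Hoxa7, Hoxb6, Hoxc4, Hoxc5 and Hoxc6. These are genes of neck and trunk levels. Of the 16 genes of groups 9 to 13 there were 5, which are Hoxa9, Hoxa13, Hoxc9, Hoxc10 and Hoxc12. Group 6 was the one group with all its members, 3 genes in 3 clusters, measurable on all control arrays. No member of groups 1, 2, 8 or 11 was. Measurable genes did not form an unbroken run. In the Hoxc cluster, Hoxc11 and Hoxc13 were flagged on no array while Hoxc12, between them, was flagged on all 6, and in the Hoxa cluster Hoxa5 was flagged on none between Hoxa4 and Hoxa6.

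The 27 probes flagged on no array sat near the bottom of the scale. Their median was -8.29, -8.41 and -8.32 on control arrays 1, 2 and 3, and -8.25, -7.81 and -8.04 on knockdown arrays 1, 2 and 3. The knockdown medians were thus higher on arrays 2 and 3, while the median of knockdown array 1 was close to those of the controls. The same arrays had the highest lowest signals of the scan, 2.67 and 2.35 intensity units against 1.84 to 2.09 on the other 4, and both sat in row 2 of the slide, with all other arrays in row 1. The part of this floor in the Hox medians was not tested. A flag of this kind limits what the array can measure and does not show that a transcript was absent.

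**Figure D2:**
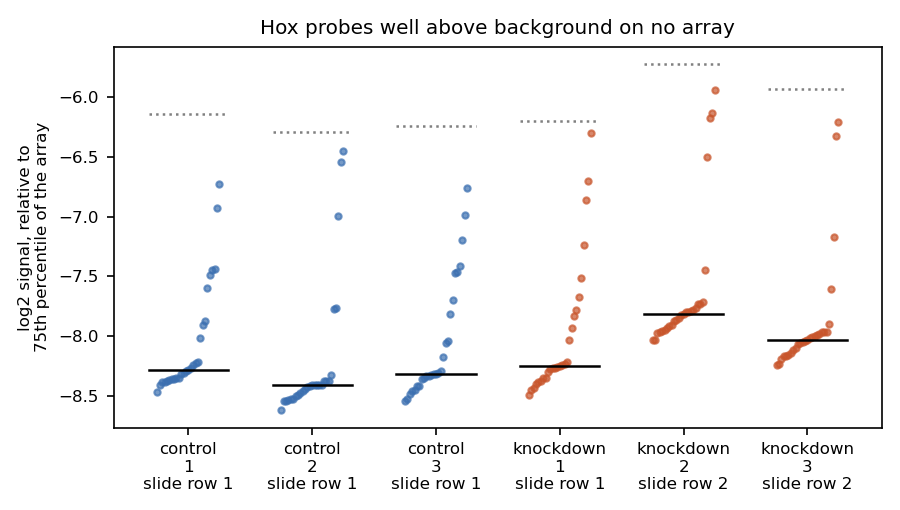
Each point is 1 of the 27 Hox probes flagged on no array (y axis, log2 signal relative to the 75th percentile of the array), sorted within each of the 6 arrays (x axis); black lines are medians and dotted lines the lowest signal well above background on that array. Every point lies below the dotted line of its array, and the medians of knockdown arrays 2 and 3 are the highest.

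Some genes had more than 1 probe, and the probes did not always concur. For Hoxb3, probe A_51_P460643 was flagged on all 6 arrays and probe A_52_P312467 on none. Hoxa13, which patterns the digits and the urogenital tract, likewise had probe A_51_P303316 flagged on all arrays and probe A_55_P1970075 on none. Both probes of Hoxa9 were flagged on all arrays. Which of the probes of Hoxb3 and Hoxa13 better represents the transcript was not tested.

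No Hox gene was called in the knockdown. Groups were compared with limma over all 42126 probes that reached the 20th percentile of their array on all arrays of a group, with Benjamini-Hochberg adjustment. A call needed an adjusted p under 0.05 and more than 1.5-fold change. Of 43 Hox probes, 17 from 16 genes entered the test, and 26 did not. None was called lower, where 3.82% of all tested probes were, and none higher, where 3.35% were. Without adjustment, 4 of the 17 had a p below 0.05. Hoxa4 and Hoxc10 were on the lower side, where 18.2% of all tested probes had such a p, and Hoxc9 and Hoxb7 on the higher side, where 18% had. All 3 knockdown arrays lay below all controls for 4 probes (23.5%, against 21.7% of all tested probes) and above them for 3 (17.6%, against 21.5%). Both shares were near those of the array as a whole. The median change was -0.085 over the 17 probes and 0.0026 over all tested probes.

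**Figure D3:**
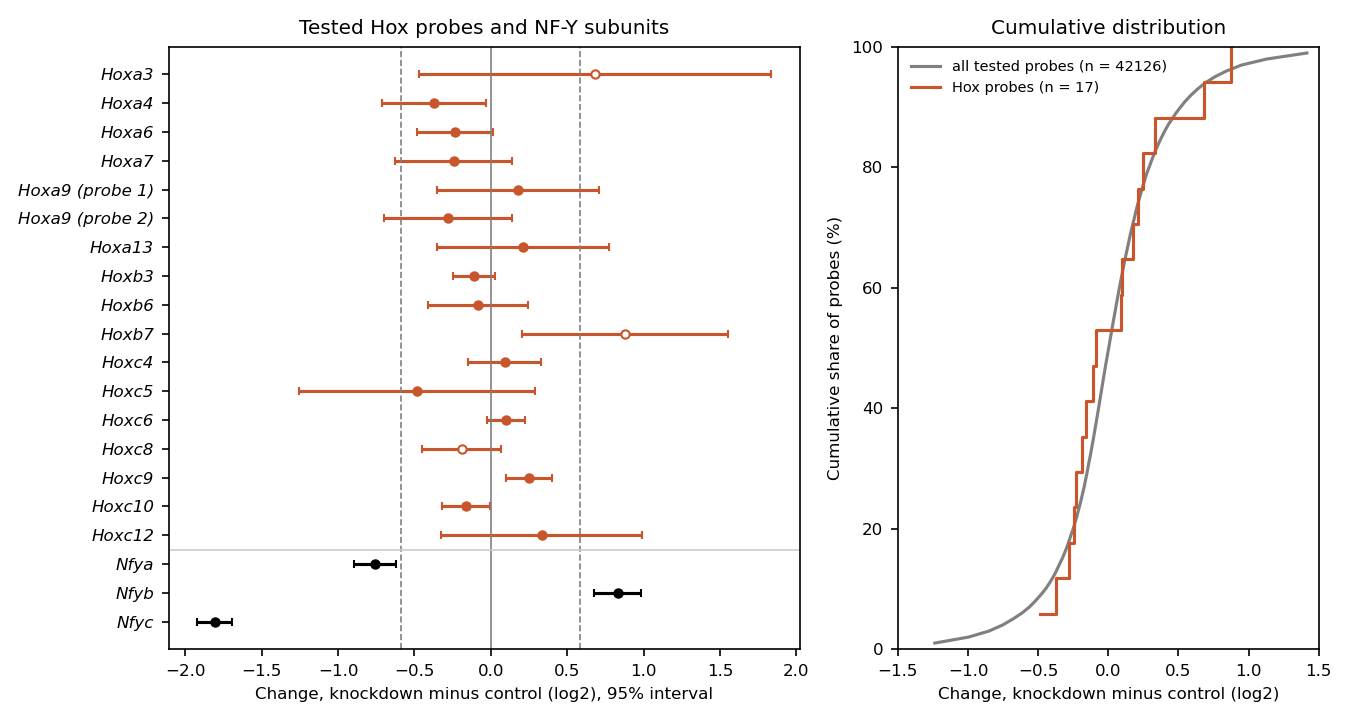
Left, change in log2 signal (knockdown minus control, points) with 95% limma intervals for the 17 tested Hox probes in cluster order and, in black, the NF-Y subunits; open points were not well above background on all control arrays and dashed lines mark 1.5-fold. Right, cumulative share of probes (%) against change for the Hox probes (red) and all 42126 tested probes (grey); the Hox changes range from -0.49 to 0.88 and their curve runs close to the grey one.

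Hoxc9, a gene of thoracic spinal cord identity, was the one tested Hox gene with an adjusted p below 0.05. Its signal was 3.36, 3.46 and 3.28 on control arrays and 3.62, 3.62 and 3.61 on knockdown arrays. The knockdown arrays were all above the controls and almost equal to each other. The change was 0.25 (SE 0.059, limma adjusted p = 0.0377), or 1.19-fold with a 95% interval of 1.07 to 1.32, which ends below the 1.5-fold minimum. At any fold, the one rise among 17 probes is 5.88%, against 11.4% of all tested probes in that direction. The change stayed above 0 in all 23 alternative analyses, from 0.13 to 0.30, while the limma adjusted p ran from 0.00219 to 0.286 and was below 0.05 in 13 of them. Alternatives that alter only the filter, the fold threshold or the variance trend cannot move the change, and fold thresholds leave its adjusted p as well. The limma adjusted p was 0.113, 0.0405 and 0.0757 without control array 1, 2 or 3, and 0.102, 0.109 and 0.107 without knockdown array 1, 2 or 3. Within slide row 1, with knockdown array 1 against the 3 controls, the change was 0.25. Row 2 holds knockdown arrays only, so with the row as a block the change again rests on knockdown array 1. It was 0.25 there as well, with a limma adjusted p of 0.185.

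Hoxc6 marks motor neurons at forelimb level. Its signal was 2.42, 2.45 and 2.48 on control and 2.53, 2.51 and 2.61 on knockdown arrays. The groups did not overlap, but the change of 0.10 (95% interval -0.023 to 0.23, limma adjusted p = 0.208) did not pass the test. Hoxc4 and Hoxc5 are neighbours of Hoxc6 that act at neck and forelimb levels. Hoxc4 read -2.30, -2.49 and -2.50 on control and -2.39, -2.20 and -2.44 on knockdown arrays, with overlapping groups and a change of 0.090 (interval -0.15 to 0.33, limma adjusted p = 0.550). Hoxc5 read -4.68, -4.89 and -5.60 against -5.75, -5.13 and -5.74, and was well above background on 2 of the 3 knockdown arrays. Its change of -0.49 had an interval of -1.26 to 0.29 (limma adjusted p = 0.319), wide enough to hold no difference as well as a fall beyond 1.5-fold.

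Hoxc10, a gene of lumbar and hindlimb levels, read -0.54, -0.59 and -0.73 on control and -0.77, -0.76 and -0.81 on knockdown arrays. The knockdown arrays were all below the controls, by a small step. The change was -0.16 (interval -0.32 to -0.0029, limma adjusted p = 0.133), and was not past the threshold. Hoxc12, of the posterior end of the cluster, read -4.83, -5.30 and -5.09 against -4.88, -5.10 and -4.24, so that knockdown array 3 alone stood above the controls. Its change was 0.33 with an interval of -0.33 to 0.99 (limma adjusted p = 0.419). Hoxc8, a gene of forelimb and thoracic levels, was well above background on 2 control arrays and no knockdown array, at -6.16, -5.91 and -5.92 against -6.29, -6.05 and -6.23. Against the lowest measurable signal of the knockdown arrays this allows no fold.

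In the Hoxa cluster, Hoxa4, a gene of neck levels, read -4.45, -4.74 and -4.67 on control and -4.77, -5.01 and -5.18 on knockdown arrays. The groups did not overlap. The change was -0.37 (interval -0.71 to -0.031, limma adjusted p = 0.114). Within slide row 1, knockdown array 1 differed from the control mean by -0.15. Hoxa6, of trunk levels, whose promoter with a CCAAT match is printed above, read -3.74, -3.99 and -3.95 against -4.07, -4.04 and -4.27. Here too the groups stayed apart, with a change of -0.23 (interval -0.48 to 0.016, limma adjusted p = 0.160). Hoxa7, its neighbour without a match, read -3.17, -3.38 and -3.65 against -3.56, -3.53 and -3.83, and the groups overlapped. Its change was -0.24 (interval -0.63 to 0.14, limma adjusted p = 0.316). Changes were not compared by CCAAT match.

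Hoxa9, known from blood stem cells and leukaemia, gave opposite signs from its probes. Probe A_55_P1979768 read -5.12, -4.96 and -5.45 on control and -4.80, -4.82 and -5.37 on knockdown arrays, a change of 0.18 (interval -0.35 to 0.71, limma adjusted p = 0.593). Probe A_55_P2066103 read -4.82, -4.78 and -5.10 against -4.88, -5.38 and -5.28, a change of -0.28 (interval -0.70 to 0.14, limma adjusted p = 0.293). Groups overlapped on both probes and neither change passed the test. Hoxa13, with CCAAT close to its start, read -5.26, -5.60 and -4.86 against -4.88, -4.92 and -5.29, again with overlap, and its change was 0.21 (interval -0.35 to 0.77, limma adjusted p = 0.555).

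In the Hoxb cluster, Hoxb3 read -0.49, -0.48 and -0.61 on control and -0.61, -0.66 and -0.63 on knockdown arrays. The knockdown arrays were below the controls by a margin that all but vanished at control array 3. The change was -0.11 (interval -0.25 to 0.024, limma adjusted p = 0.207). Hoxb6, a trunk gene, read -4.91, -4.85 and -5.08 against -5.23, -5.05 and -4.81, with overlapping groups and a change of -0.085 (interval -0.41 to 0.24, limma adjusted p = 0.685).

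**Figure D4:**
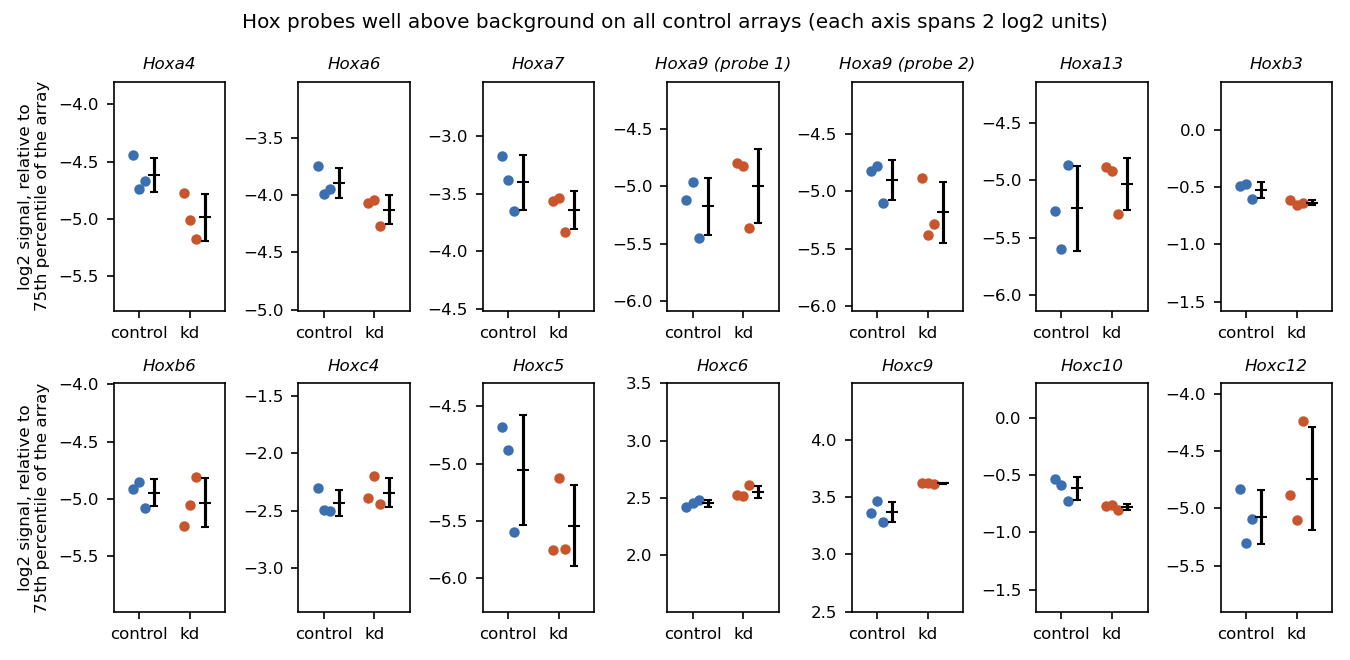
Signal of the 14 Hox probes well above background on all control arrays (y axis, log2 relative to the 75th percentile of the array) on control (blue) and knockdown (red, kd) arrays, with mean and SD (n = 3 each) in black; Hoxa9 probe 1 is A_55_P1979768 and probe 2 is A_55_P2066103. Axes all span the same range, and the gap between groups is small beside it for Hoxb3, Hoxc6, Hoxc9 and Hoxc10.

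How large a change could have gone unseen differed between genes. For 7 of the 14 probes measurable on all control arrays, the 95% interval of the main analysis lay within 1.5-fold both ways. These are the probes of Hoxa6, Hoxb3, Hoxb6, Hoxc4, Hoxc6, Hoxc9 and Hoxc10. For 4 it reached a 1.5-fold fall (Hoxa4, Hoxa7, Hoxc5 and probe A_55_P2066103 of Hoxa9) and for 3 a 1.5-fold rise (Hoxa13, Hoxc12 and probe A_55_P1979768 of Hoxa9), so changes of that size were not excluded there. Intervals under other scalings, or with the slide row as a block, were not compared. Of the 14 changes, 8 were below 0 and 6 above.

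Hoxb7 is singled out here after its values were seen. It read -7.44, -6.54 and -7.41 on control and -6.30, -6.13 and -6.33 on knockdown arrays, all above the controls. It was well above background on no array, so no fold is given. The limma adjusted p was 0.0738, and without control array 2, its highest control, it was 0.00768 and the probe was called higher. Hoxa3, a hindbrain and pharyngeal gene flagged on 1 array of each group, read -6.88, -6.04 and -7.59 against -6.29, -6.52 and -5.66, and the groups overlapped (limma adjusted p = 0.347).

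Of 2 noncoding transcripts named after Hox genes, Hoxa11os, which runs antisense to Hoxa11, was well above background on all arrays while Hoxa11 itself was so on none. It read -3.96, -3.60 and -2.63 on control and -3.98, -4.09 and -3.98 on knockdown arrays. Control array 3 stood far above the rest, and the change of -0.62 (interval -1.52 to 0.27, limma adjusted p = 0.272) did not pass the test. Hoxd3os1 was flagged on no array and was not tested.

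Some known cofactors and regulators of Hox genes were called, in shares close to those of all genes. Of 80 listed genes 79 had a probe and 73 were tested. There were 3 called lower (5% of all genes were) and 4 higher (3.91% of all genes were). The median change of the list was -0.018. Among the 8 TALE cofactors tested, Pbx3, a DNA-binding partner of Hox proteins, rose from 2.88, 3.0 and 2.99 to 3.68, 3.57 and 3.52 (change 0.63, limma adjusted p = 0.00286). The other cofactors tested were not called, among them Meis1 with a change of -0.14 (limma adjusted p = 0.363) and Meis2 with 0.16 (limma adjusted p = 0.162). With each array centred on its median instead, Pbx3 changed by 0.52 and was not called.

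In PRC2, the complex that writes the repressive mark H3K27me3, 2 of 11 genes were called lower, where 5% of all genes were, and 0 higher. At any fold, 2 of the 11 had a limma adjusted p below 0.05 on the lower side and 2 on the higher. Over all genes these shares were 15.8% and 15.7%, and the median change of the 11 was -0.019. Ezh1, one of its alternative catalytic subunits, read 3.11, 3.08 and 3.07 on control and 2.49, 2.52 and 2.44 on knockdown arrays. Its change of -0.61 (limma adjusted p = 0.00129) was just past 1.5-fold and lay under it in 4 of the 23 alternatives. Ezh1 probes A_55_P2155942 and A_55_P2017086 were also well above background on all arrays and were not called. They changed by -0.58 (limma adjusted p = 0.00156) and -0.48 (limma adjusted p = 0.00182), under 1.5-fold. Phf19, which helps recruit the complex to chromatin, read -3.37, -3.07 and -3.15 against -4.42, -4.35 and -4.36, a change of -1.18 (limma adjusted p = 0.00149). With normexp background correction it changed by -0.55 after scaling to the 75th percentile, under 1.5-fold, and by -0.61 after quantile normalization. Ezh2, the other catalytic subunit, was not called (0.12, limma adjusted p = 0.156). None of the 19 PRC1 genes and none of the 11 trithorax and demethylase genes tested was called on the probe that stands for the gene.

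Among the retinoic acid genes, which carry a signal that switches on anterior Hox genes, 1 of 14 was called, on the higher side. Of all genes, 3.91% were called higher. Cyp26b1, an enzyme that degrades retinoic acid, rose from -2.20, -1.70 and -1.96 to -0.93, -0.97 and -1.16 (change 0.93, limma adjusted p = 0.0109). With the slide row as a block its change was 1.02 (limma adjusted p = 0.0719), which rests on knockdown array 1 alone. Gdf11, a signal that sets the position of the trunk-to-tail Hox genes, fell from -1.71, -1.71 and -1.84 to -2.63, -2.69 and -2.41 (change -0.82, limma adjusted p = 0.00397). With normexp its change was -0.55 or -0.58, by the same scalings, and was under 1.5-fold in both. The call of Gsx1, a homeobox gene related to the Hox genes, was made on a probe well above background on no array and is given no fold. It was lost when any 1 array was left out, with a limma adjusted p of 0.0519 to 0.107.

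**Figure D5:**
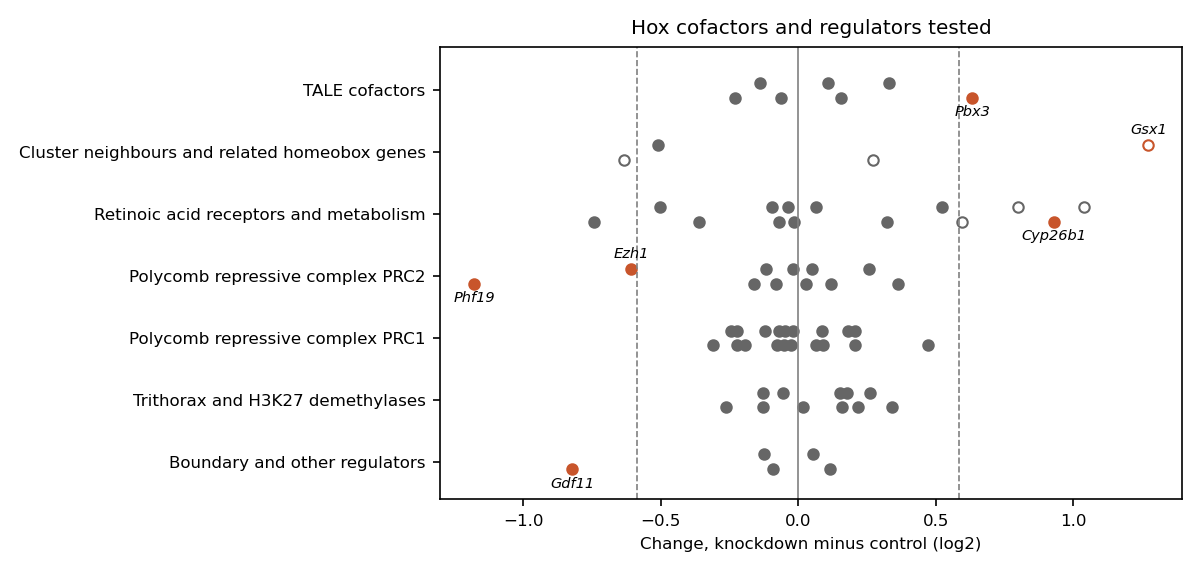
Change in log2 signal (x axis, knockdown minus control) of tested Hox cofactors and regulators by role, with genes not reported here left out (y axis); red points with names were called, open points were not well above background on all 3 arrays of either group, and dashed lines mark 1.5-fold. Of the red points, 3 lie to the left and 3 to the right.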

How the data were processed

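The authors scanned 6 one-colour Agilent arrays of total RNA and ran Feature Extraction 10.10.1.1, and the deposited tables give each spot's background-corrected processed signal as an intensity with flags. The deposited series matrix holds log2 values, which matched the scaling used here to within 0.0075 between arrays and served as an alternative. Control spots and outlier spots were left out, log2 signal minus the 75th percentile of the array was taken, and spots of a probe were averaged. Symbols came from RefSeq (GRCm38.p6) through accessions. The array annotation uses another build (mm9), so no probe coordinates are given. For genes with several probes, the one with the highest mean signal stands for the gene. The tests used lmFit and eBayes of limma 3.58.1 (R 4.3.3), two-sided and without covariates, on all 6 arrays. The procedure was tested on simulated data. Bounds for probes not well above background used the lowest measurable signal of each array. Precision is limited by 3 arrays a group.

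Groups came from sample titles. The genes named are those measurable on all 3 arrays of a group, called regulators, and Meis1, Meis2, Pbx3 and Ezh2, and others where a count was small. Some genes that this rule would name are not reported here. Members, lists and tests were chosen with earlier results of these data known. Alternatives covered scaling, background correction, filters, thresholds, variance models, blocks, averaging of probes and leaving out each array. Slide row 1 alone was added after seeing the data.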

Additional observations from a re-analysis of the deposited data

How the results depend on the processing

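Over 23 alternatives, 0 Hox probes were called lower in every one, and 1 was called higher under each of 2, Hoxc9 with no minimum fold change and Hoxb7 without control array 2 (0 to 1 when leaving out an array). Of 322 changes of the 14 measurable probes, 314 kept their direction and stayed uncalled, and 7 turned sign, all uncalled. Filters, fold thresholds and a variance trend cannot alter a probe's change, so its direction was fixed in advance under those alternatives. With each array centred on its median, Hoxc4 changed by -0.026 and Hoxc6 by -0.016, while the median of all probes moved to -0.11. Hoxb6 changed by 0.040 with normexp and the 75th percentile and by 0.016 without knockdown array 1. Probe A_55_P2066103 of Hoxa9 changed by 0.022 with the slide row as a block or in row 1 alone, and the mean of the Hoxa9 probes changed by -0.050. The median change of the tested Hox probes was -0.20 with median centring, 0.040 with normexp, 0.21 with no filter, 0.022 with the row block, 0.078 in row 1 alone and -0.081 to 0.080 leaving out an array. The cause was not tested.

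Calls over all genes were 824 lower and 644 higher, and moved to 1175 and 382 with median centring, 585 and 276 with normexp and the 75th percentile, 556 and 283 with normexp and quantile normalization, 2602 and 2597 with no minimum fold change, 286 and 181 at 2-fold, 317 and 267 in row 1 alone (where the single knockdown array has no spread of its own and is assumed to vary like the controls), and 752 to 830 and 549 to 614 leaving out an array. Regulators called lower and higher, 3 and 4, became 6 and 2 with median centring, 1 and 2 with either normexp, 7 and 16 with no minimum fold change, 1 and 1 at 2-fold, 0 and 0 in row 1 alone, and 3 to 4 in either direction leaving out an array; with the row block 2 were called higher. Normexp used the median signal in place of the planned mean signal, which was not among the spot values at hand.

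Same-numbered arrays correlated at 0.0178, 0.0666 and 0.00246 in their deviations across probes. Control arrays 1 and 2 correlated best with the knockdown array of their own number, and control array 3 with knockdown array 1 (0.0627). The remaining pairs ran from -0.0814 to 0.0097. These values do not settle whether replicate numbers pair the arrays, and the main test did not pair them. With the replicate number as a block, 0 Hox probes were called in either direction and 765 genes were lower and 518 higher. Signal over background limits the 27 Hox probes flagged on no array, for which these arrays give no fold.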

Other observations

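Probes of the same regulator gene did not always move together; these genes were picked after their values were seen. Psip1, which tethers trithorax complexes to chromatin, had probe A_51_P314111 at 2.24, 2.21 and 2.31 on control and 1.35, 1.21 and 1.29 on knockdown arrays, a change of -0.97 (limma adjusted p = 0.000792). Its probe A_55_P1993054 changed by -0.13 (limma adjusted p = 0.104). Bmi1, a PRC1 subunit, had probe A_52_P39157 at 1.89, 1.74 and 1.93 against 1.15, 1.14 and 1.18, a change of -0.70 (limma adjusted p = 0.00231), while its probe A_55_P2170335 changed by -0.19 (limma adjusted p = 0.0718). All these probes were well above background on all 6 arrays, and the transcripts each one reads were not analysed here.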
